A study of Rattus norvegicus with 23 samples.

Results

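The genes described here encode the transforming growth factor beta (TGF-beta) ligands Tgfb1, Tgfb2 and Tgfb3, their receptors Tgfbr1, Tgfbr2 and Tgfbr3, and the latent TGF-beta binding proteins Ltbp1, Ltbp2, Ltbp3 and Ltbp4 in rat myocardium after a heart attack. They were picked by gene symbol, a rule that uses no measured value, with earlier results of these data known, and all 10 were found among 10723 genes with values per library at 12 weeks and among 11283 genes in each of the authors' tables of comparisons at 6 and 12 weeks. The study compared Sprague-Dawley rats that had the left coronary artery ligated through a left thoracotomy to give a myocardial infarction (MI), with rats infarcted alike that were then operated on again to implant a device named TRD (MI+TRD). The sources used here do not say what TRD stands for or where on the heart it sat, name no operated control for the second surgery, and do not say which region of the myocardium was sampled. The groups were MI+TRD with 5 libraries at 6 weeks and MI with 6 libraries at 6 weeks, then MI+TRD with 6 libraries at 12 weeks and MI with 6 libraries at 12 weeks, so that every group carried the infarction. The 12-week values per library were used for tests, and the 6-week groups through the authors' deposited table.

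TGF-beta ligands are secreted as latent complexes, in which the mature ligand stays wrapped in its own propeptide. A latent binding protein attaches to that propeptide and moors the complex to fibrillin and fibronectin in the matrix, from which integrins or proteases free it. Free ligand brings together the type II receptor Tgfbr2 and the type I receptor Tgfbr1, which then phosphorylates Smad2 and Smad3, and in the infarcted heart this signal is known for driving scar formation by fibroblasts.

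At 12 weeks none of the 10 genes passed the test between MI+TRD and MI. The type I receptor Tgfbr1 had the highest estimate, 1.495-fold (95% interval 1.06 to 2.10), and the matrix-bound binder Ltbp4 the lowest, 0.813-fold (0.665 to 0.993), and each had an unadjusted p under 0.05 without passing the adjustment. In the authors' deposited table for 6 weeks Ltbp2 had the highest ratio of the 10, 2.24, and also missed the false discovery threshold. The start regions of these 3 genes are shown because they had the highest or lowest values named here, none of which passed an adjusted threshold. Each runs from 250 bases before to 50 bases after the annotated gene start in RefSeq (build GRCr8), 5′ to 3′ along the gene. Capitals mark the GC box GGGCGG and the Smad box CAGAC, each on either strand (CCGCCC and GTCTG on the other).
Tgfbr1, chr5:66449148-66449447, plus strand: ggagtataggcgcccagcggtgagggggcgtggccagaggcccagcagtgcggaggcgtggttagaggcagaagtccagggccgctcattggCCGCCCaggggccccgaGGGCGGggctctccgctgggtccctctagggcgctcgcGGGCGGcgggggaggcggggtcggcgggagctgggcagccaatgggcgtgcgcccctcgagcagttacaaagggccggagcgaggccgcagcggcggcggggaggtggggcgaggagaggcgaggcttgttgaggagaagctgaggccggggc
Ltbp2, chr6:110257249-110257548, minus strand: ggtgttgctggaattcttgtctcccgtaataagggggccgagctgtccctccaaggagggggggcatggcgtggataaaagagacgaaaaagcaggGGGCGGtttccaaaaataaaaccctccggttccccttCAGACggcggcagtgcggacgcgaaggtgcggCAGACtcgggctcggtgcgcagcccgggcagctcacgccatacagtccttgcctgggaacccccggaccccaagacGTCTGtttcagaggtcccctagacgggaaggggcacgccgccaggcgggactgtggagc
Ltbp4, chr1:91759758-91760057, minus strand: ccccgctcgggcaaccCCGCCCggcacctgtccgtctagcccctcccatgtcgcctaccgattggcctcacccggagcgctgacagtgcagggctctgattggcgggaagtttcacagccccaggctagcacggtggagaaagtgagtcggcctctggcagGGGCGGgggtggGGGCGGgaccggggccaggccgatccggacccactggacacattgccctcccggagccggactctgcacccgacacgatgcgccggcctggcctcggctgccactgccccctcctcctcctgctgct

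The Tgfbr1 and Ltbp4 windows each held 3 GC boxes and no Smad box, with GC contents of 74.7% and 71.0%. The Ltbp2 window held 3 Smad boxes and 1 GC box, with a GC content of 63.3%. All 10 genes were matched in the promoter table, and their GC contents lay between 47.7% and 74.7%, against a median of 51.7% over 33469 rat promoters. GC boxes were found in 6 of the 10 windows, those of Tgfbr1, Tgfbr2, Tgfbr3, Ltbp2, Ltbp3 and Ltbp4, and in 33.1% of all promoters. The 3 ligand windows held none. The Smad box was found in 2 of the 10, Ltbp1 and Ltbp2, and in 50.1% of all promoters. CCAAT occurred in 4 of the 10 windows (37.5% of all promoters), and neither the AP-1 letters TGANTCA (7.33%) nor TATAAA (14.2%) occurred in any. These are matches of letters on both strands in one window per gene, and no binding was measured.

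In the authors' deposited table the ligand genes lie, on build rn6, at chromosome 1, 82480875 to 82497197 on the plus strand (Tgfb1), chromosome 13, 105041053 to 105140781 on the minus strand (Tgfb2), and chromosome 6, 109913757 to 109935534 on the minus strand (Tgfb3). The receptor genes lie at chromosome 5, 63056081 to 63119636, plus (Tgfbr1), chromosome 8, 124312829 to 124398865, minus (Tgfbr2), and chromosome 14, 3506416 to 3680509, plus (Tgfbr3). The binder genes lie at chromosome 6, 21203502 to 21600443, minus (Ltbp1), chromosome 6, 108500114 to 108596447, minus (Ltbp2), chromosome 1, 221099998 to 221116097, plus (Ltbp3), and chromosome 1, 84118046 to 84150085, minus (Ltbp4). The promoter coordinates are of another build and are not comparable with these.

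Recovered reads numbered 7197118 to 10304156 per library, which gave the 10 genes between 42 reads (Ltbp2 in MI+TRD 1) and 6386 reads (Ltbp4) in a library. Column totals of the normalized counts were 369333 to 398879 in MI+TRD and 388572 to 540053 in MI. Over 10655 genes the median log2 fold change was -0.14, so the fold change of each of the 10 genes is also given relative to that median. Rescaling the libraries by median ratios moved the median to 0.01 and the genes at unadjusted p under 0.05 to 801 higher and 876 lower, against 298 higher and 2033 lower as deposited. Cardiomyocyte markers, the defining genes of the labelled tissue, summed to 32648 to 53201 normalized counts in MI+TRD and 39399 to 64022 in MI. Ribosomal RNA entries took 1.81% to 4.45% of the total in MI+TRD and 1.35% to 11.7% in MI, with MI 1 the highest. MI+TRD 6 stood apart with a macrophage marker sum of 2126, where the other MI+TRD libraries reached at most 258 and the MI libraries 82.1 to 222. MI 2 stood apart with an atrial marker sum of 13358, the highest of the MI range of 809 to 13358, against 987 to 4236 in MI+TRD. All 12 macrophage markers and 7 of 8 atrial markers were measured, none at 3 reads or fewer in every library. In such bulk tissue, fewer cells of a type and less RNA per cell cannot be told apart.

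Tgfb1, the ligand most often tied to cardiac fibrosis, had a lowest, median and highest normalized count of 8.36, 14.8 and 27.0 in MI+TRD, against 10.6, 16.6 and 23.4 in MI. The MI+TRD libraries held both the highest and the lowest value, and the groups overlapped almost entirely. The log2 fold change was -0.07 (SE 0.26, 95% interval -0.62 to 0.47; relative to all genes 0.07), with adjusted p = 0.903 by limma with Benjamini-Hochberg adjustment. Its sign turned under every rescaling of the libraries.

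Tgfb2, the ligand known for its part in forming the heart valves, had a lowest, median and highest value of 7.09, 14.9 and 38.5 in MI+TRD, against 7.19, 15.4 and 31.5 in MI. It varied more between libraries than the other 2 ligands: MI+TRD 5 and MI+TRD 6 (38.5 and 29.6) and MI 2 and MI 5 (31.5 and 30.3) were high, and the other 8 libraries lay between 7.09 and 16.8. Its log2 fold change was 0.01 (SE 0.41, 95% interval -0.87 to 0.88; relative 0.15; limma with Benjamini-Hochberg adjustment, adjusted p = 0.995). As a fold, the interval ran from 0.549 to 1.84. With the atrial markers as a covariate the log2 fold change was 0.44 (SE 0.36; adjusted p = 0.566 by limma).

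Tgfb3, the third ligand, was at 17.6, 26.03 and 45.0 (lowest, median, highest) in MI+TRD, against 19.9, 28.7 and 36.4 in MI. MI+TRD 5 was the highest library and MI+TRD 3 the lowest, with the MI values inside that range. Its log2 fold change was -0.06 (SE 0.20, 95% interval -0.49 to 0.37; relative 0.08), with adjusted p = 0.895 by limma with Benjamini-Hochberg adjustment. As for Tgfb1, the sign turned under every rescaling, so no direction is given for either ligand.

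**Figure D1:**
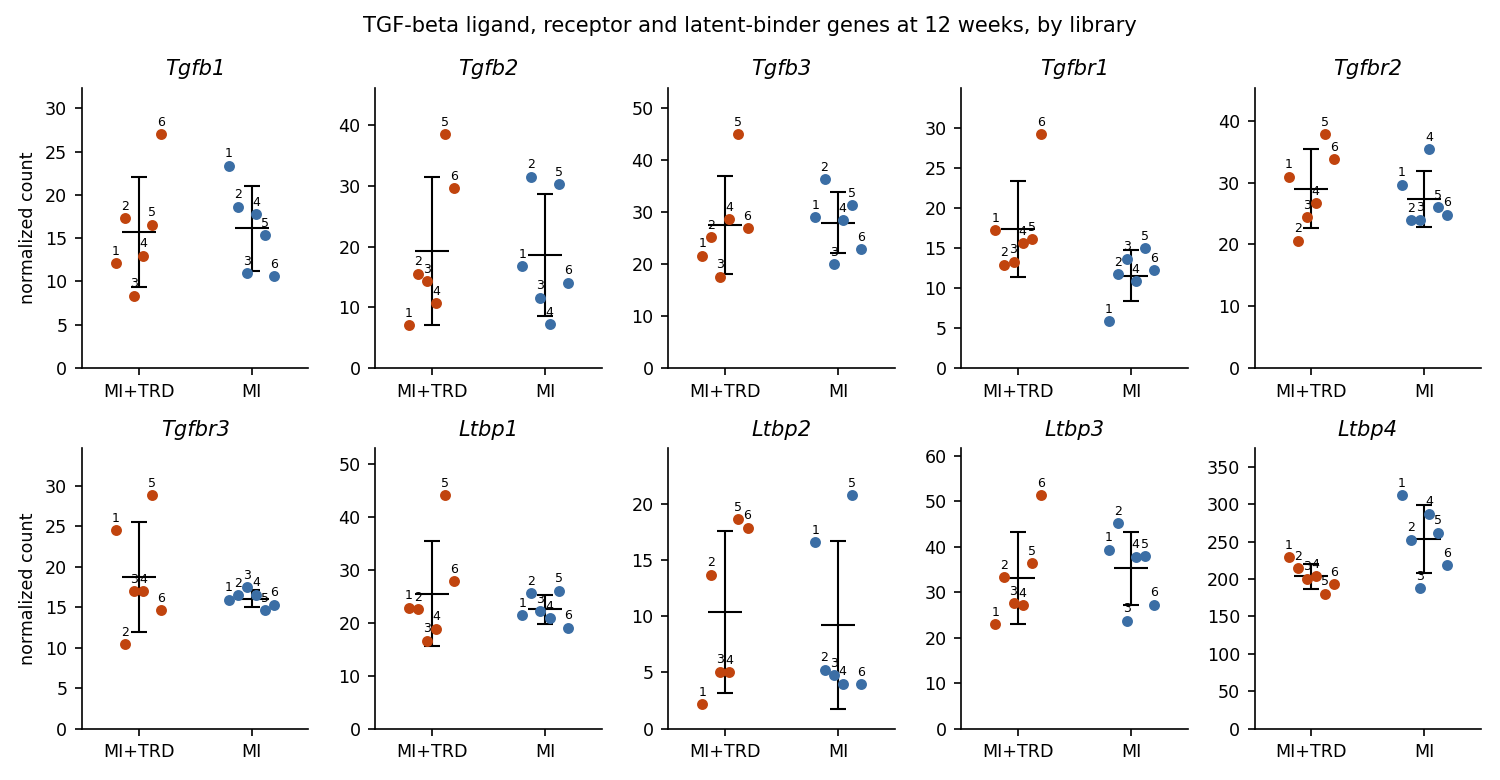
Normalized count of each gene in each library at 12 weeks, with MI+TRD left of MI; points are libraries, and bars give the mean and SD of 6 libraries. The groups overlap in every panel; the highest Tgfbr1 point is MI+TRD 6 at 29.2, and Ltbp2 falls into a high and a low set of libraries in both groups.

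Tgfbr1 is the kinase that passes the TGF-beta signal on to the Smads. It had normalized counts of 17.2, 12.9, 13.3, 15.6, 16.1 and 29.2 in MI+TRD libraries 1 to 6, against 5.80, 11.7, 13.6, 10.9, 14.98 and 12.2 in MI libraries 1 to 6. Every one of the 6 MI+TRD values exceeded the MI mean and 4 exceeded the highest MI library, but MI+TRD 2 and MI+TRD 3 fell within the MI range. MI+TRD 6 was far above the rest of its group. MI 1, the library with the highest share of ribosomal RNA, was the lowest of its own group, at 5.80 with the next at 10.9, and the part of that share was not tested.

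The Tgfbr1 means were 17.4 ± 6.02 in MI+TRD and 11.5 ± 3.17 in MI (SD, n = 6 each). The log2 fold change was 0.58 (SE 0.23, 95% interval 0.09 to 1.07; relative 0.72), with adjusted p = 0.168 by limma with Benjamini-Hochberg adjustment. Tgfbr1 was the 1 of 10 genes higher at unadjusted p under 0.05, where 2.80% of all genes tested were. Under the 4 rescalings 701 to 1208 of the 10655 genes were higher at unadjusted p under 0.05, against 298 as deposited. The Tgfbr1 estimate stayed above 0 under all 27 alternatives that gave one, and it lay between 0.72 and 0.81 under the 4 rescalings, with adjusted p from 0.248 to 0.291. Without MI+TRD 6 it was 0.42 (adjusted p = 0.221 by limma), and without MI 1 it was 0.40 (adjusted p = 0.295 by limma), and in each case its unadjusted p was no longer under 0.05. With limma's library weights it was 0.37 (adjusted p = 0.415). The macrophage marker sum was also highest in MI+TRD 6. So were those of epicardial and mesothelial markers (98.4) and of T, NK and B cell markers (35.6, 4 of 11 measured). The cardiomyocyte marker sum was lowest there (32648). The part of these cells in the Tgfbr1 value was not tested.

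Tgfbr2, the type II receptor that binds the ligand first, was at 20.6, 28.8 and 37.8 (lowest, median, highest) in MI+TRD, against 23.9, 25.4 and 35.5 in MI. MI+TRD held both extremes, and the groups overlapped. Between the groups the log2 fold change was 0.07 (SE 0.16, 95% interval -0.26 to 0.41; relative 0.22), with adjusted p = 0.832 by limma with Benjamini-Hochberg adjustment. The ratio of Tgfbr1 to Tgfbr2 normalized counts within a library averaged 0.600 ± 0.146 in MI+TRD (0.426 to 0.864) and 0.438 ± 0.153 in MI (0.196 to 0.575; SD, n = 6 each). The ratio is not scaled to transcript length, so it does not compare the abundance of the receptors, and it is given as a description.

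Tgfbr3, or betaglycan, is the co-receptor that hands ligand, Tgfb2 in particular, to the signalling receptors. It was at 10.5, 17.0 and 28.9 (lowest, median, highest) in MI+TRD, against 14.6, 16.2 and 17.5 in MI. MI+TRD libraries 1 and 5 lay above every MI library and MI+TRD 2 below every one, while the 6 MI libraries lay close together. The coefficient of variation was 36.0% in MI+TRD and 6.37% in MI, a difference in spread that was not tested. The log2 fold change was 0.15 (SE 0.20, 95% interval -0.28 to 0.57; relative 0.29), with adjusted p = 0.718 by limma with Benjamini-Hochberg adjustment. It was 0.007 without MI+TRD 5, 0.05 without MI+TRD 1 and 0.30 without MI+TRD 2.

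Ltbp1, the most widely studied of the latent binders, was at 16.6, 22.7 and 44.1 (lowest, median, highest) in MI+TRD, against 19.1, 21.8 and 26.1 in MI. MI+TRD 5 stood above all other libraries, and 2 MI+TRD libraries lay below every MI library. Its log2 fold change was 0.11 (SE 0.20, 95% interval -0.31 to 0.53; relative 0.25), with adjusted p = 0.797 by limma with Benjamini-Hochberg adjustment. Without MI+TRD 5 it was -0.065.

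Ltbp2 is the member of the family that does not bind latent TGF-beta and sits on fibrillin microfibrils. It had normalized counts of 2.15, 13.7, 5.06, 5.01, 18.6 and 17.9 in MI+TRD libraries 1 to 6, against 16.6, 5.24, 4.74, 3.999, 20.8 and 3.93 in MI libraries 1 to 6. Both groups split: MI+TRD 2, 5 and 6 and MI 1 and 5 were at 13.7 or more, and the other 7 libraries were at 5.24 or less. Its log2 fold change was 0.15 (SE 0.54, 95% interval -1.004 to 1.30; relative 0.29), with adjusted p = 0.906 by limma with Benjamini-Hochberg adjustment. Its coefficient of variation, 69.3% in MI+TRD and 81.1% in MI, was the highest of the 10 genes in each group. Atrial markers moved with it in part: their summed normalized count was 4236, 1331 and 1684 in MI+TRD 2, 5 and 6, and 987 to 1058 in MI+TRD 1, 3 and 4. It was 2649 and 4373 in MI 1 and MI 5, while the MI libraries low in Ltbp2 had 809 to 1842 and, in MI 2, 13358. Epicardial and mesothelial markers split alike within each group. Their sum was 62.1, 45.5 and 98.4 in MI+TRD 2, 5 and 6, and 24.2 to 33.9 in MI+TRD 1, 3 and 4. In MI 1 and MI 5 it was 27.9 and 31.0, and in the other MI libraries 16.3 to 24.4. With the atrial markers as a covariate the Ltbp2 log2 fold change was 0.58 (SE 0.53, adjusted p = 0.608 by limma with Benjamini-Hochberg adjustment). The part of atrial tissue was not tested further, and that of epicardial and mesothelial cells was not tested.

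Ltbp3, which forms latent complexes and is known from bone and tooth growth, was at 22.9, 30.4 and 51.3 (lowest, median, highest) in MI+TRD, against 23.7, 37.8 and 45.2 in MI. MI+TRD 6 was the highest of all 12 libraries and MI+TRD 1 the lowest. At 12 weeks the log2 fold change was -0.10 (SE 0.20, 95% interval -0.53 to 0.32; relative 0.04), with adjusted p = 0.807 by limma with Benjamini-Hochberg adjustment, and its sign turned under every rescaling. Leaving out 1 library at a time gave -0.241 (without MI+TRD 6) to -0.009 (without MI+TRD 1).

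Ltbp4, a binder that also takes part in elastic fibre assembly, had normalized counts of 229, 215, 200, 204, 180 and 193 in MI+TRD libraries 1 to 6, against 312, 252, 188, 287, 262 and 218 in MI libraries 1 to 6. All 6 MI+TRD libraries lay below the MI mean, but only MI+TRD 5 lay below the lowest MI library, MI 3. The means were 204 ± 16.9 in MI+TRD and 253 ± 45.1 in MI (SD, n = 6 each).

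The Ltbp4 log2 fold change was -0.30 (SE 0.14, 95% interval -0.59 to -0.0096), with adjusted p = 0.216 by limma with Benjamini-Hochberg adjustment. Relative to all genes it was -0.16. Ltbp4 was the 1 of 10 genes lower at unadjusted p under 0.05, where 19.1% of all genes tested were, so a count of 1 in 10 was no more than the background. Under the 4 rescalings the log2 fold change lay between -0.14 and -0.06, and the unadjusted limma p was no longer under 0.05. The same held without MI+TRD 3, 4, 5 or 6 or MI 1, 2, 4 or 5, each left out in turn.

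**Figure D2:**
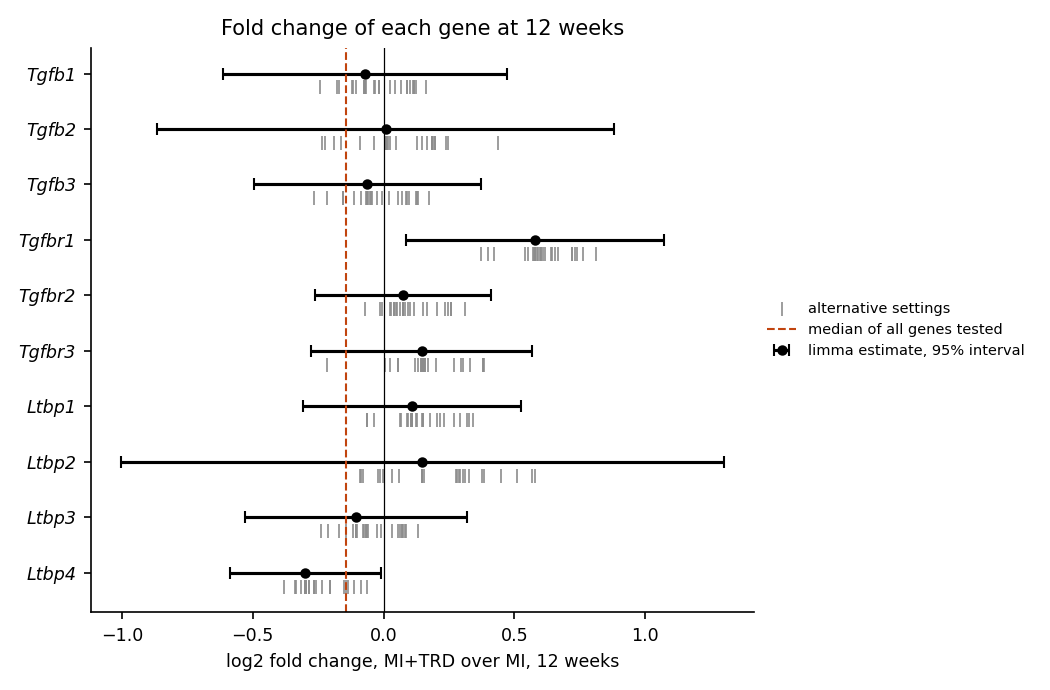
Log2 fold change of each gene, MI+TRD over MI at 12 weeks (horizontal axis); points with bars are limma estimates with 95% intervals from 6 and 6 libraries, grey ticks are the estimates under the alternatives, and the dashed line is the median of all genes tested. Tgfbr1 at 0.58 and Ltbp4 at -0.30 are the genes whose intervals leave out 0, and 9 of the 10 estimates lie right of the dashed line at -0.14.

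Over the 10 genes, 0 passed the adjusted threshold of limma with Benjamini-Hochberg adjustment, where 0.00% of all genes tested did, with 1 higher and 1 lower at unadjusted p under 0.05. The quasi-likelihood test of edgeR, run on recovered reads, also called 0 genes, with Tgfbr1 at adjusted p = 0.304 after Benjamini-Hochberg adjustment. DESeq2 called 18 genes (0.169% of those tested), none of them among the 10, with Tgfbr1 at adjusted p = 0.128. In no gene did the 6 MI+TRD values all lie above or all below the 6 MI values, where 0.113% of all genes were wholly above and 1.59% wholly below. The median log2 fold change of the 10 genes was 0.04, against -0.14 for all genes tested, and 9 of the 10, Ltbp4 being the exception, lay above the median of all genes. The median relative to all genes was 0.18 with every library, 0.06 without MI+TRD 5, 0.10 without MI+TRD 6 and 0.08 without MI 4, and in these 3 cases 7, 7 and 8 of the 10 lay above 0. With limma's library weights it was 0.05, with 7 of 10 above 0, and with the gene span trend removed 0.08, with 8 of 10. It was 0.13 without MI 3, 0.14 without MI 6 and 0.14 without MI+TRD 1, 4 and 5. In each of these, 7 of 10 lay above 0.

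Individual libraries set many of the extremes. MI+TRD 5 held the highest MI+TRD value of 6 genes, Tgfb2, Tgfb3, Tgfbr2, Tgfbr3, Ltbp1 and Ltbp2, and the lowest of Ltbp4. MI+TRD 6 held the highest of 3 more, Tgfb1, Tgfbr1 and Ltbp3. MI+TRD 1 held the remaining one, Ltbp4. Of all 12 libraries MI+TRD 5 had the most genes at 0 reads, 178 with the next at 119, and the lowest limma library weight, 0.42. It also had the highest sums of smooth muscle (2706), pericyte (384) and erythroid (1124) markers. The part of these in its values was not tested. In MI the highest values were spread over 5 libraries, with at most 3 genes in each.

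**Figure D3:**
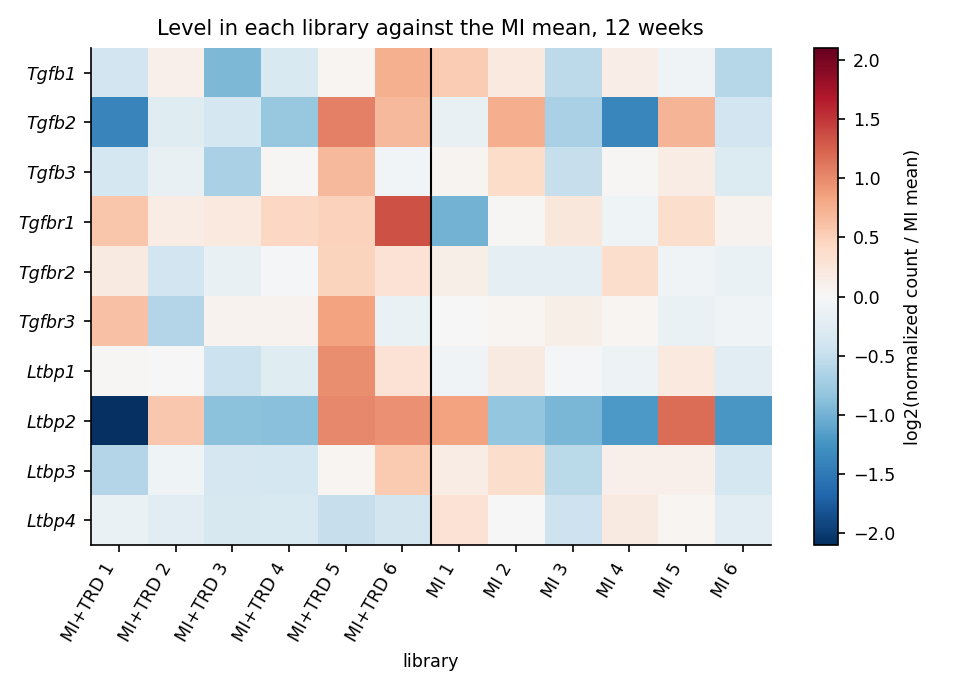
Log2 of each normalized count over the MI mean of that gene (colour), for the 10 genes (vertical axis) and the 12 libraries at 12 weeks (horizontal axis), with MI+TRD left of the black line. MI+TRD 5 is above the MI mean in every gene but Ltbp4 (180 against a mean of 253), Ltbp2 is split in both groups, and Tgfbr1 is above the MI mean in all 6 MI+TRD libraries.

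For each gene the 3 genes with the most similar levels over the 12 libraries were found from log2 values centred on the library median. These are the closest of all genes tested, picked for their r, and the coefficients are given as descriptions. Tgfbr1 was most like Tram1 (Pearson r = 0.93, Spearman rho = 0.94, and r = 0.95 without the 2 libraries farthest from the Tgfbr1 median), then RGD1560455 and Kcnd1. Tgfb1 was most like Acly (r = 0.93, rho = 0.94, 0.91 without the 2 farthest), Lmnb1 and Slc25a1. Tgfb2 was most like Sfrp2, which encodes a secreted modulator of Wnt signalling (r = 0.90, rho = 0.96, 0.80 without the 2 farthest), Serpina3n and Ppp1r36. Its libraries also fell into a high set (29.6 or more) and a low set (16.8 or less), and whether this r rests on that split was not tested. Tgfb3 was most like Sdk2 (r = 0.94, rho = 0.88, 0.90 without the 2 farthest), Arfgap3 and Actn4.

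The remaining receptors and binders had nearest genes at a similar r. Tgfbr2 was closest to Ago1 (r = 0.90, rho = 0.92, 0.87 without the 2 farthest), Tmem104 and Ccdc93, and Tgfbr3 to Btbd7 (r = 0.94, rho = 0.90, 0.77 without the 2 farthest), Cyp51 and Ptpn13. Ltbp1 was closest to Tmem43 (r = 0.93, 0.82 without the 2 farthest), but the rank correlation with it was lower (rho = 0.71), and Ctps2 was also among its nearest genes. Ltbp3 was closest to Pdk3 (r = 0.96, rho = 0.97, 0.94 without the 2 farthest), Efhd2 and Vat1. Ltbp4 was closest to Tmem184b (r = 0.92, rho = 0.81, 0.87 without the 2 farthest), Dohh and Nos3, the endothelial nitric oxide synthase. For Ltbp2, whose libraries form 2 separate sets, no r is given; its nearest genes were Epn3, Kcng4 and Bgn, the last of which encodes a matrix proteoglycan that binds TGF-beta.

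At 6 weeks the comparison rests on the authors' deposited tables, whose scaling is not stated, so that the 2 times are set side by side and their difference was not tested. In the authors' deposited table Tgfb1 had a ratio of MI+TRD to MI of 1.23 at 6 weeks (p = 0.294) and 0.948 at 12 weeks (p = 0.678). Tgfb2 had ratios of 0.999 and 1.02, and Tgfb3 of 1.19 and 0.966, at 6 and 12 weeks in the authors' deposited table. None of the ligand values passed p under 0.05 at either time.

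Among the receptors, Tgfbr1 had a ratio of 1.09 at 6 weeks (p = 0.682) and 1.47 at 12 weeks (p = 0.0166, false discovery rate 0.116) in the authors' deposited table. Tgfbr2 had ratios of 1.19 and 1.04 and Tgfbr3 of 1.31 and 1.153 at 6 and 12 weeks in the authors' deposited table, all at p over 0.05. Ltbp2 had least-squares means of 35.3 in MI+TRD and 15.7 in MI at 6 weeks in the authors' deposited table, a ratio of 2.24 (p = 0.0458, false discovery rate 0.563), and a ratio of 1.10 at 12 weeks (p = 0.835). Values of single libraries were not used at 6 weeks, so whether the 6-week Ltbp2 means also come from a high and a low set of libraries was not tested.

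Ltbp3 had a ratio of 1.32 at 6 weeks (p = 0.0593, false discovery rate 0.607) and 0.916 at 12 weeks in the authors' deposited table. Ltbp1 had ratios of 0.983 and 1.11 at 6 and 12 weeks in the authors' deposited table. Ltbp4 had a ratio of 0.904 at 6 weeks (p = 0.317) and 0.790 at 12 weeks (p = 0.0182, false discovery rate 0.122) in the authors' deposited table, below 1 at both times.

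No gene of the 10 passed a false discovery rate of 0.05 in either of the authors' deposited tables, where 0.00% of all genes did at 6 weeks and 2.94% at 12 weeks. At 6 weeks 1 of 10, Ltbp2, was higher at p under 0.05 in the authors' deposited table, where 4.42% of all genes were, and 0 were lower, where 4.09% were. At 12 weeks 1, Tgfbr1, was higher, where 2.12% were, and 1, Ltbp4, was lower, where 22.0% were, in the authors' deposited table. The median ratio of the 10 genes in the authors' deposited tables was 1.19 at 6 weeks, against 0.973 for all genes, and 1.03 at 12 weeks, against 0.896 for all genes.

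**Figure D4:**
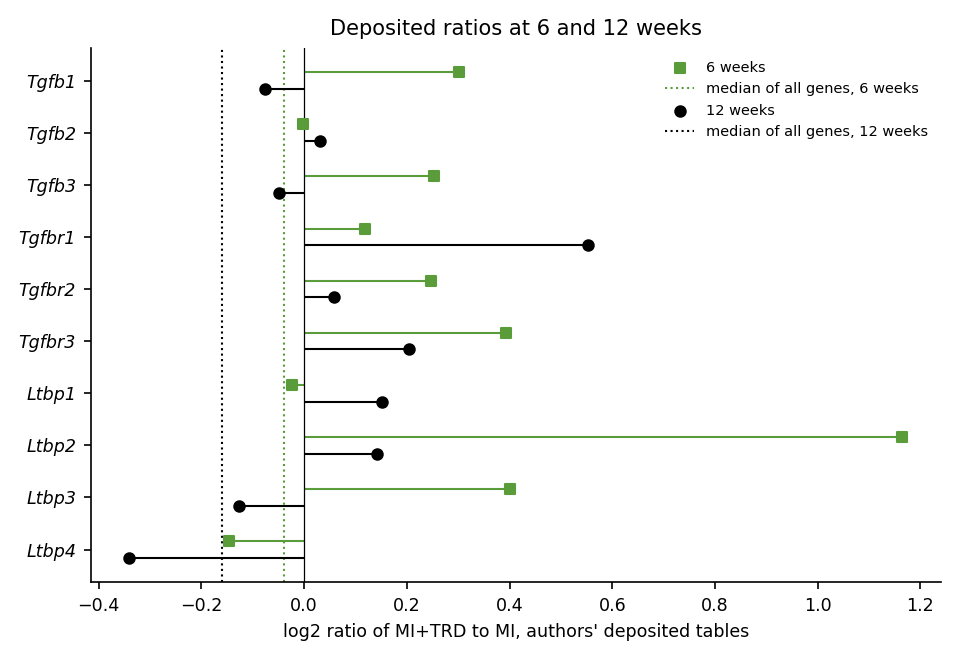
Log2 ratio of MI+TRD to MI (horizontal axis) for each gene in the authors' deposited tables at 6 weeks and at 12 weeks, each point being the authors' value, with dotted lines at the median of all genes. Ltbp2 at 6 weeks, a ratio of 2.24, is the farthest from 0, Tgfbr1 is farther right at 12 weeks than at 6 weeks, and Ltbp4 lies left of 0 at both.

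The genes around the ligands and receptors were taken as 5 lists: proteins that release and activate latent TGF-beta, matrix proteins that anchor it, co-receptors and extracellular inhibitors, Smad signalling and its feedback, and known target genes. At 12 weeks 81 of 94 listed genes were tested, and 0 passed limma's adjusted threshold. At unadjusted p under 0.05, 2 of the 81 were higher, beside 2.80% of all genes, and 7 were lower, beside 19.1% of all genes. Their median log2 fold change was -0.06, against -0.14 over all genes tested. Without MI+TRD 6 the lower genes numbered 11, and the higher ones numbered 0 without MI+TRD 5 or MI 5 and 1 without MI+TRD 3, MI 3 or MI 4. Over all 10655 genes 2332 were lower without MI+TRD 6, and 190 to 348 were higher without each of the others named. With edgeR 10 pathway genes were higher and 2 lower at unadjusted p under 0.05, beside 8.00% and 6.98% of all genes, and with DESeq2 11 and 3, beside 8.88% and 7.17%.

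Of 17 release and activation genes, 1 was higher and 2 were lower at unadjusted p under 0.05, beside 2.80% and 19.1% of all genes. Furin, the protease that cleaves the TGF-beta propeptide, averaged 51.2 ± 5.95 in MI+TRD and 65.1 ± 9.94 in MI (SD, n = 6 each), a log2 fold change of -0.34 (SE 0.13; relative to all genes -0.20; adjusted p = 0.164 by limma with Benjamini-Hochberg adjustment). Bmp1, a metalloprotease that cuts latent binders, averaged 20.9 ± 6.44 in MI+TRD and 26.9 ± 4.94 in MI (log2 fold change -0.39, SE 0.18; relative -0.25). Tll1, a close relative of Bmp1, averaged 1.79 ± 0.633 in MI+TRD and 1.06 ± 0.346 in MI (log2 fold change 0.64, SE 0.29; relative 0.79), with as few as 8 reads in a library.

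Of 12 matrix anchor genes, Adamts10, whose product binds fibrillin, was lower at unadjusted p under 0.05, beside 19.1% of all genes. It averaged 17.2 ± 4.45 in MI+TRD and 27.5 ± 6.72 in MI (SD, n = 6 each), a log2 fold change of -0.67 (SE 0.19; relative -0.53; adjusted p = 0.133 by limma with Benjamini-Hochberg adjustment). In 5 of 6 MI+TRD libraries it was below the lowest MI library. Fbn1, fibrillin-1 itself, averaged 45.8 ± 10.1 in MI+TRD and 36.9 ± 7.98 in MI (log2 fold change 0.31, SE 0.18; relative 0.45). Fn1, fibronectin, was at 1366 in MI+TRD 6 and at 21.4 to 55.5 in the other MI+TRD libraries, against 16.8 to 33.1 in MI. Its log2 fold change was 1.35 (SE 0.77, relative 1.496, adjusted p = 0.323 by limma). MI+TRD 6 also had the highest macrophage and epicardial and mesothelial marker sums and the lowest cardiomyocyte marker sum.

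Of 13 co-receptors and inhibitors, 2 were lower at unadjusted p under 0.05, beside 19.1% of all genes. Lrg1, a secreted protein that modulates TGF-beta signalling in blood vessels, averaged 17.7 ± 5.85 in MI+TRD and 29.8 ± 8.52 in MI (log2 fold change -0.75, SE 0.23; relative -0.61; adjusted p = 0.133 by limma with Benjamini-Hochberg adjustment). Fstl3, a follistatin-like binder of activin, had 0.369 to 0.974 in MI+TRD and 1.07 to 2.36 in MI, from 6 to 43 reads a library (log2 fold change -0.70, relative -0.55). Its groups did not overlap, as in the 1.59% of all genes wholly below, and it was named for having one of the lowest p-values of its list. Acvrl1, an endothelial type I receptor, averaged 49.2 ± 9.13 in MI+TRD and 60.2 ± 11.7 in MI (log2 fold change -0.29, SE 0.16; relative -0.14).

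Of 18 Smad signalling genes, 2 were lower at unadjusted p under 0.05, beside 19.1% of all genes. Smurf1, a ubiquitin ligase that marks Smads and the receptor for breakdown, averaged 24.2 ± 3.04 in MI+TRD and 31.8 ± 5.66 in MI (log2 fold change -0.38, SE 0.14; relative -0.24; adjusted p = 0.150 by limma with Benjamini-Hochberg adjustment). Tab1, which activates the kinase encoded by Map3k7, averaged 11.2 ± 1.83 in MI+TRD and 14.9 ± 2.98 in MI (log2 fold change -0.40, SE 0.15; relative -0.25). Usp15, a deubiquitinase that acts on the receptor complex, averaged 22.7 ± 4.88 in MI+TRD and 17.9 ± 2.94 in MI (log2 fold change 0.33, SE 0.16; relative 0.47; adjusted p = 0.244 by limma with Benjamini-Hochberg adjustment).

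Of 21 target genes, Lox, which crosslinks collagen, was higher at unadjusted p under 0.05, beside 2.80% of all genes. It was at 13.7 in MI+TRD 6 and at 0.949 to 2.82 in the other MI+TRD libraries, against 0.368 to 2.20 in MI (log2 fold change 1.13, SE 0.50; relative 1.27; adjusted p = 0.205 by limma with Benjamini-Hochberg adjustment). Ctgf, a matricellular protein and a classical target, averaged 178 ± 91.0 in MI+TRD and 260 ± 137 in MI (log2 fold change -0.57, SE 0.38; relative -0.43). Bhlhe40, a transcription factor, averaged 56.2 ± 9.05 in MI+TRD and 49.0 ± 15.4 in MI (log2 fold change 0.23, SE 0.19; relative 0.37).

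In the authors' deposited table for 6 weeks the same lists had more genes past p under 0.05 on the higher side: 24 of 83 were higher, beside 4.42% of all genes, and 1 was lower, beside 4.09%. The authors' deposited table put 0 of the 83 under a false discovery rate of 0.05, the lowest being 0.286. The 24 were 8 of 13 matrix anchors, 9 of 21 target genes, 5 of 18 release and activation genes and 2 of 13 co-receptors and inhibitors. None of 18 Smad signalling genes was past p under 0.05, and the 2 with the lowest p were Map3k7, with a ratio of 0.886, and Tgif1, with a ratio of 1.61, in the authors' deposited table.

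Fn1 had least-squares means of 494 in MI+TRD and 58.2 in MI at 6 weeks (ratio 8.48) in the authors' deposited table, and Fbn1 of 104 and 56.4 (ratio 1.85). Of the proteases, Mmp2 had 168 in MI+TRD and 91.8 in MI (ratio 1.83) and Mmp14 had 45.6 and 18.1 (ratio 2.52), in the authors' deposited table at 6 weeks. Of the targets, the collagen gene Col3a1 had a ratio of 2.51 and the matricellular gene Postn a ratio of 9.48, in the authors' deposited table at 6 weeks. Bgn had a ratio of 1.82 and Fstl1 of 1.53, and the 1 lower gene, Acvrl1, of 0.709, in the authors' deposited table. At 12 weeks 1 of the 83 genes was higher, beside 2.12% of all genes, and 7 lower, beside 22.0%, at p under 0.05 in the authors' deposited table. The 12-week ratios in the authors' deposited table were 9.88 for Fn1, 1.22 for Fbn1, 0.797 for Mmp2 and 1.13 for Mmp14. In the authors' deposited table they were 1.23 for Col3a1, 2.15 for Postn, 1.34 for Bgn, 1.26 for Fstl1 and 0.805 for Acvrl1. At 12 weeks Fn1 was at 1366 in MI+TRD 6 and at 21.4 to 55.5 in the other MI+TRD libraries. Values of single libraries were not used at 6 weeks, so whether 1 library set the 6-week means of these genes was not tested.

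**Figure D5:**
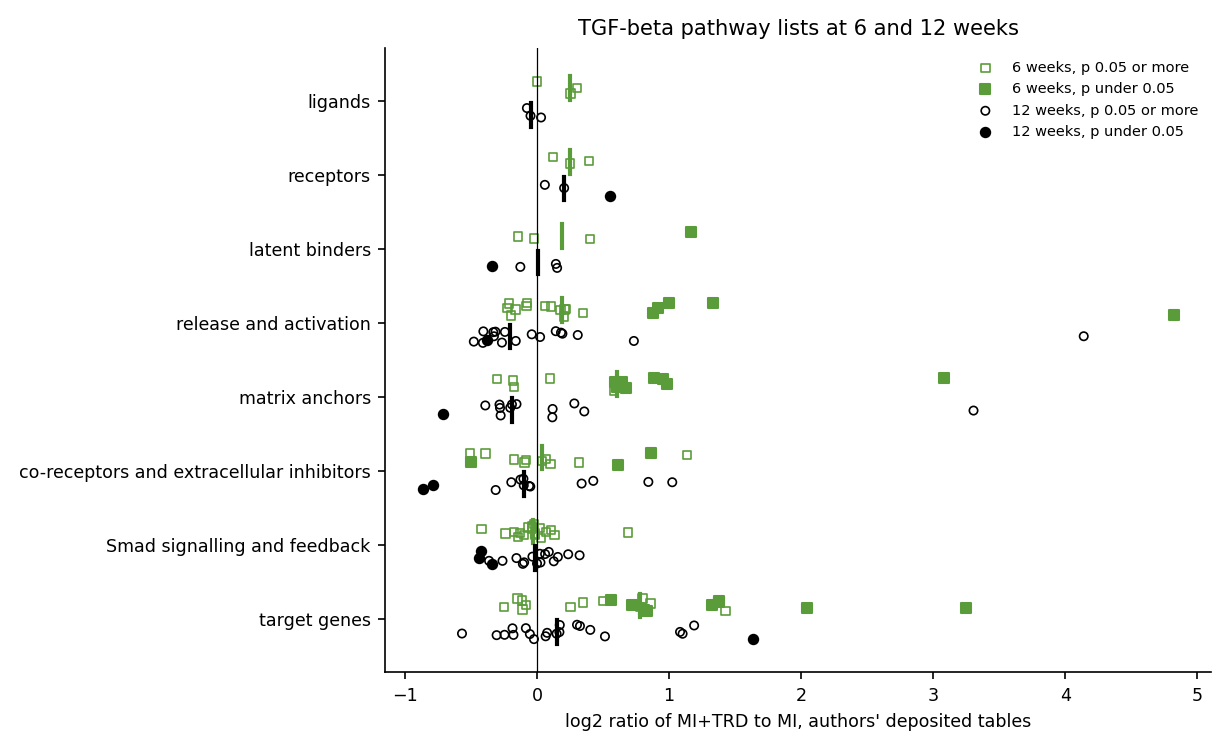
Log2 ratio of MI+TRD to MI (horizontal axis) of each gene in the authors' deposited tables, for the ligands, receptors, latent binders and 5 pathway lists (vertical axis); squares are 6 weeks, circles are 12 weeks, filled marks have p under 0.05, and vertical bars are list medians. At 6 weeks filled squares right of 0 number 8 among 13 matrix anchors and 9 among 21 target genes, and 1 among the 10 ligand, receptor and binder genes.

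Some markers of other cells were also past p under 0.05 at 6 weeks in the authors' deposited table. There 0.00% of all genes passed a false discovery rate of 0.05. Of 12 macrophage markers, 10 were higher at p under 0.05 in the authors' deposited table, with least-squares means that summed to 809 in MI+TRD and 202 in MI, beside 4.42% of all genes higher and 4.09% lower. Fibroblast markers summed to 1618 in MI+TRD and 1581 in MI in the authors' deposited table, with 3 of 10 higher. Endothelial markers summed to 908 in MI+TRD and 1225 in MI there, with 5 of 10 lower. Whether 1 library set these 6-week sums was not tested. The 12-week macrophage sum was 2126 in MI+TRD 6 and at most 258 in any other library. By limma 0 of the 12 macrophage markers were higher at unadjusted p under 0.05 at 12 weeks. At 12 weeks epicardial and mesothelial markers summed to 24.2 to 98.4 normalized counts in MI+TRD and 16.3 to 31.0 in MI, with 6 of 8 higher at unadjusted p under 0.05 by limma, beside 2.80% of all genes. Fibroblast markers summed to 751 to 1699 in MI+TRD and 1286 to 2369 in MI at 12 weeks. By limma 3 of these 10 were lower at unadjusted p under 0.05, beside 19.1% of all genes. So were 4 of 9 cardiomyocyte and 3 of 10 endothelial markers. The part of these cells in the values of the TGF-beta genes was not tested.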

How the data were processed

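Polyadenylated RNA from rat myocardium was read by Illumina sequencing, per the labels' protocols. Partek and the build rn6 are named in the submitters' processing notes; for aligner, annotation, counter, strand setting, scaling and statistical model the answer is not given in the sources used here. For 12 weeks the authors deposited a signal, a normalized count for every gene in every library. In each library low values were whole multiples of a step, so a value was read as (reads + 1) times the step; 97.2% to 98.6% of values up to 20 steps were whole to within 0.1. Deposited beside these, per the file headers, were a p-value and step-up false discovery rate, a ratio, a signed fold change score and least-squares means for 6 and 12 weeks.

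The test was limma 3.58.1 (trended eBayes, two-sided, no covariates) in R 4.3.3 on log2(value + 0.208), with Benjamini-Hochberg adjustment over the 10655 genes averaging at least 0.415 deposited units and a threshold of 0.05. Fold changes are on that log2(value + pseudocount) scale, which understates changes of low genes. On recovered reads edgeR 4.0.16 called 0 genes and DESeq2 1.42.0 called 18. Other alternatives were library scalings, pseudocounts, filters, left-out libraries, library weights, an atrial marker covariate, removal of a gene span trend, a Wilcoxon test and a replicate block. All pairs of libraries of a group differed beyond sampling noise (chi-square over degrees of freedom at least 14.7). The labels give no animal identifiers, so p-values measure only the spread between these samples, which may be technical. The members and lists were chosen with earlier results of these data known. Named genes were the 10 members, in each pathway list up to 3 with the lowest limma p at 12 weeks and up to 2 with the lowest deposited p at 6 weeks, and the 3 nearest genes of each member, 1 of which is not reported here. Figures were drawn with matplotlib 3.10.9.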

Additional observations from a re-analysis of the deposited data

Results flagged for a closer look

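In 10 of 66 groups of 6 libraries, over 33 genes named above, 1 library at 12 weeks lay far from the other 5 of its group (gap over range above 0.625). About 1 in 20 groups of independent, normally distributed values would pass that limit. The values here were unlogged counts of genes that share libraries, and some genes were named for low p. That rate need not hold for them, so the 10 are given as a description. All 10 were MI+TRD libraries, and 7 of them were MI+TRD 6. In MI+TRD 6, Tgfbr1 was at 29.2 normalized counts with the others at 12.9 to 17.2. Of the release and anchor genes in that library, Mmp14 was at 34.8 with the others at 8.81 to 13.8, Adamts10 at 25.4 with the others at 13.5 to 17.8, and Fn1 at 1366 with the others at 21.4 to 55.5. Of the target genes there, Lox was at 13.7 with the others at 0.949 to 2.82, Col3a1 at 986 with the others at 230 to 486, and Postn at 43.8 with the others at 1.69 to 10.5. In MI+TRD 5, Fstl1 was high at 118 with the others at 41.3 to 69.3, and Bhlhe40 low at 38.2 with the others at 56.8 to 62.3. In MI+TRD 4, Fstl3 was low at 0.369 with the others at 0.882 to 0.974, a value of 6 reads.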

How the results depend on the processing

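No gene of the 10 passed an adjusted threshold under any of 28 alternatives, and Tgfbr1 and Ltbp4 kept their signs. Over all genes DESeq2 called 18. The members higher at unadjusted p under 0.05 numbered 0 without MI+TRD replicates 1, 4 and 5, with library weights and with the atrial covariate (0 to 1 without single libraries). Those lower numbered 0 under the 4 scalings, without 1, 4 and 5, with weights, atrial covariate, span trend removed and replicate block, and by edgeR, DESeq2 and Wilcoxon (0 to 1 without single libraries). In the order median ratio, quantile, equal totals, equal totals without ribosomal RNA, the higher pathway genes numbered 8, 4, 10 and 9 and the lower 3, 3, 2 and 2. The higher ones numbered 0 with the higher filter, 6 without 1, 4 and 5, 5 with span trend removed, 10 by edgeR, 11 by DESeq2 and 1 by Wilcoxon (0 to 3 without single libraries), and the lower ones 4, 4, 3, 2 and 3 without 1, 4 and 5, with the atrial covariate, with span trend removed, by edgeR and by DESeq2 (5 to 11). Over all 10655 genes the higher numbered 801, 701, 1208 and 899 in that order of scalings, and the lower 876, 1042, 412 and 704. Without 1, 4 and 5, 285 of all genes were higher and 1032 lower, and with span trend removed 716 and 657. With the atrial covariate 1361 of all genes were lower, and by Wilcoxon 207 were higher. With the higher filter 244 of 7803 genes were higher.

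In that order of scalings, log2 fold changes of the other sign were 0.088, 0.065, 0.162 and 0.112 for Tgfb1, 0.099, 0.071, 0.174 and 0.123 for Tgfb3, and 0.056, 0.031, 0.131 and 0.080 for Ltbp3. With the atrial covariate, span trend removed, edgeR and DESeq2, in turn, they were 0.099, 0.117, 0.116 and 0.125 for Tgfb1, 0.088, 0.087, 0.128 and 0.133 for Tgfb3, and 0.069, 0.086, 0.064 and 0.072 for Ltbp3. Without 1, 4 and 5 they were 0.024 for Tgfb1, 0.070 for Ltbp3, -0.072 for Tgfbr2, -0.218 for Tgfbr3 and -0.037 for Ltbp1. Library weights gave -0.189 for Tgfb2, -0.064 for Ltbp1 and -0.088 for Ltbp2, and the atrial covariate -0.012 for Tgfbr2. Without single libraries the ranges were -0.245 to 0.089 (Tgfb1), -0.236 to 0.245 (Tgfb2), -0.216 to 0.054 (Tgfb3), -0.008 to 0.166 (Tgfbr2), 0.007 to 0.296 (Tgfbr3), -0.065 to 0.216 (Ltbp1), -0.091 to 0.508 (Ltbp2) and -0.241 to -0.009 (Ltbp3). The atrial covariate gave 0.436 for Tgfb2 and 0.579 for Ltbp2. The cause was not tested.

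Replicate numbers were not taken to pair the libraries: the 6 same-numbered pairs correlated at -0.25, 0.33, 0.14, 0.19, 0.12 and -0.33, not all over 0.1, and 3 of 6 were most alike their own number. With the number as a block 0 genes were called and no member was lower at unadjusted p under 0.05. Ltbp2 had the fewest reads of the 10 genes, 42 in MI+TRD 1, and 6 libraries a group limit what can be detected.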
